A study of Mus musculus with 2 samples.

Results

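The metallothionein genes Mt1 and Mt2 were followed through cultures of mouse embryonic stem cells. They are the 2 genes chosen by symbol out of 32285 in the deposited count tables. Embryonic stem cells are pluripotent cells grown from the early embryo. The cells came from 9 lines of the inbred strain C3H/HeSn-Paf/J, derived independently from XX, XO and XY embryos, 3 lines of each kind, and all lines were pooled. Time 1 is a pool at an early passage, and time 2 is a pool grown for 10 more passages, a stretch meant to let cells with abnormal chromosome numbers build up. Both pools were kept in serum with the cytokine LIF on gelatin and irradiated mouse embryonic fibroblast feeders, and neither received a treatment. Each time point is 1 droplet library, so there was no replicate and no test between times. Cells were not assigned to their lines here, and intervals below cover counting error only.

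Metallothioneins are small, cysteine-rich proteins that bind zinc and copper and take up toxic metals such as cadmium. Their transcription is driven by the zinc-sensing factor MTF1, which binds metal response elements in their promoters, and also by glucocorticoids and oxidative stress. Mt1 and Mt2 are the broadly expressed members, whereas Mt3 is best known from brain and Mt4 from stratified epithelia.

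All 4 genes lie side by side on the plus strand of chromosome 8 of the GRCm38 build. Mt1 (ENSMUSG00000031765) spans chr8:94179082-94180327 and Mt2 (ENSMUSG00000031762) spans chr8:94172664-94173568, with 5513 bases between them. Both are annotated as protein-coding. They are closely related in sequence, so reads that fit both could be split or dropped by the counting, and a shift between the 2 genes is uncertain to that extent. The promoters are shown because both genes are classical metal-response genes and varied together from cell to cell here. Below are the 250 bases before each RefSeq start (GRCm38.p6, plus strand, 5′ to 3′), with matches to the core of the metal response element, searched as TGCACNC and TGCGCNC on both strands, in capitals.
Mt1, chr8:94178839-94179088: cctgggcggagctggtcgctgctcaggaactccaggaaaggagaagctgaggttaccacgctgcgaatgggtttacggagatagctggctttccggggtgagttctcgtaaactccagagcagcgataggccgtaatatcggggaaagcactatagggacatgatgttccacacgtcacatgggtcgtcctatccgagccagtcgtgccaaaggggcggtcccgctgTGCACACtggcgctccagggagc
Mt2, chr8:94172368-94172617: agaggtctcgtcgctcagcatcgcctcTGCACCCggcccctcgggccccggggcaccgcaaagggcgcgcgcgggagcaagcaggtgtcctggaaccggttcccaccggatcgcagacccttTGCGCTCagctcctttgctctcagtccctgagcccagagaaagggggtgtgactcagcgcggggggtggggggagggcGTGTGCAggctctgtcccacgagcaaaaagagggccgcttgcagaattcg

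The Mt1 window held 1 match and the Mt2 window held 3. Bases past the RefSeq starts were not searched, so these counts do not compare the 2 promoters as a whole. At least 1 match was present in 21.4% of the 32851 promoters of the RefSeq table, and 3 or more in 1.26%. TGACNNNGC, the core of the antioxidant response element, was found once in the Mt2 window and not in that of Mt1, against 10.2% of all promoters with a match. The last bases of the Mt1 window overlap the GENCODE gene model, whose start lies a little upstream of the RefSeq start, and the GENCODE start of Mt2 lies downstream of its window. Matches describe the letters only.

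Cells were barcodes with many UMIs (unique molecular identifiers, each marking 1 captured RNA molecule), 23162 at time 1 and 25424 at time 2, with medians of 44363 and 50344 UMIs. They were clustered without Mt1 and Mt2, and each of the 14 clusters is called by its leading gene. Of these, 4 were called pluripotent stem cell-like (led by Rhox9, Usp26, Krt42 and Gm46332), with 8843 cells at time 1 and 19251 at time 2. The name rests on the lack of other classes' markers among their leading genes and on low fibroblast and macrophage markers. All 12 pluripotency markers were detected in them, but so were all markers of every other class, so detection tells no class apart. Their markers of feeder fibroblasts summed to 5.75 and 5.34 counts per 1000000 UMIs (CPM), and those of macrophages to 9.58 and 8.04 CPM. The pluripotency markers summed to 10258 CPM at time 1 and 6694 CPM at time 2, those of primed epiblast to 162 and 106 CPM, those of germ cells to 138 and 105 CPM, those of endothelium to 45.5 and 32.7 CPM, and those of trophoblast to 35.0 and 12.8 CPM. These sums were lower at time 2, as Mt1 and Mt2 were. The markers of primitive or parietal endoderm, at 143 and 167 CPM, and of neural cells, at 63.2 and 90.9 CPM, were higher at time 2. The part of these cells in the levels below was not tested. The Rpgrip1-led cluster (5993 cells at time 1, 16 at time 2) had no marker of another class in the lead but 51.2 CPM of fibroblast and macrophage markers together, and was left unnamed. The Card19-led cluster (69 cells, time 1 only) stood apart with a median of 352626 UMIs per cell. Its median mitochondrial share was 0.10%, against 1.53 to 2.56% in the other clusters of at least 50 cells. The cells of the 2 libraries shared 157 barcode sequences.

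Both genes were abundant in the pluripotent stem cell-like population and somewhat lower at time 2. Mt1 was at 1463 CPM at time 1 (95% Poisson interval 1460 to 1467) and at 1062 CPM at time 2 (1060 to 1064). Mt2 was at 677 CPM at time 1 (675 to 680) and 585 CPM at time 2 (584 to 587). The log2 ratio of time 2 to time 1, computed from CPM plus 1, was -0.46 for Mt1 and -0.21 for Mt2, against a median of -0.03 over 7363 genes at 10 CPM or more. Neither reached the 1.5-fold limit used for a call, which 5.24% of those genes passed upward and 10.2% downward. With trimmed-mean scaling, which raised the median of all genes by 0.14, the split was 767 genes higher and 473 lower in place of 386 and 753, and the values became -0.32 for Mt1 and -0.06 for Mt2. With the primed epiblast-like (Sema6a-led) cells added to the population, Mt1 had -0.23 and Mt2 turned to 0.15. Nearly all of those cells came from time 1 (7135, against 394 at time 2). With the unnamed Id1-led cells (136 and 4544) added as well, a choice made after seeing the data, the values were -0.35 and 0.0023.

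The ratios of Mt1 and Mt2 were below those of most genes on their chromosome. The 434 chromosome 8 genes had a median log2 ratio of 0.29, with 19.1% past the limit upward and 3.92% downward. Mt1 stood at percentile 15.0 and Mt2 at percentile 31.6 of all genes. Of the 10 nearest detected genes, 5 on each side, 9 had ratios above 0 at time 2, with a median of 0.36. Mt4 was at 12.5 and 15.4 CPM (0.29), and Mt3 was at 12.7 and 12.9 CPM (0.02). Nudt21, a subunit of the RNA 3′-end cleavage machinery and the most abundant of the 10, was at 266 and 329 CPM (0.31). Herpud1, an endoplasmic reticulum stress gene, was the exception at -0.15 (-0.01 with trimmed-mean scaling). Mt1 and Mt2 thus lay below 0 where 9 of 10 neighbours lay above it.

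**Figure D1:**
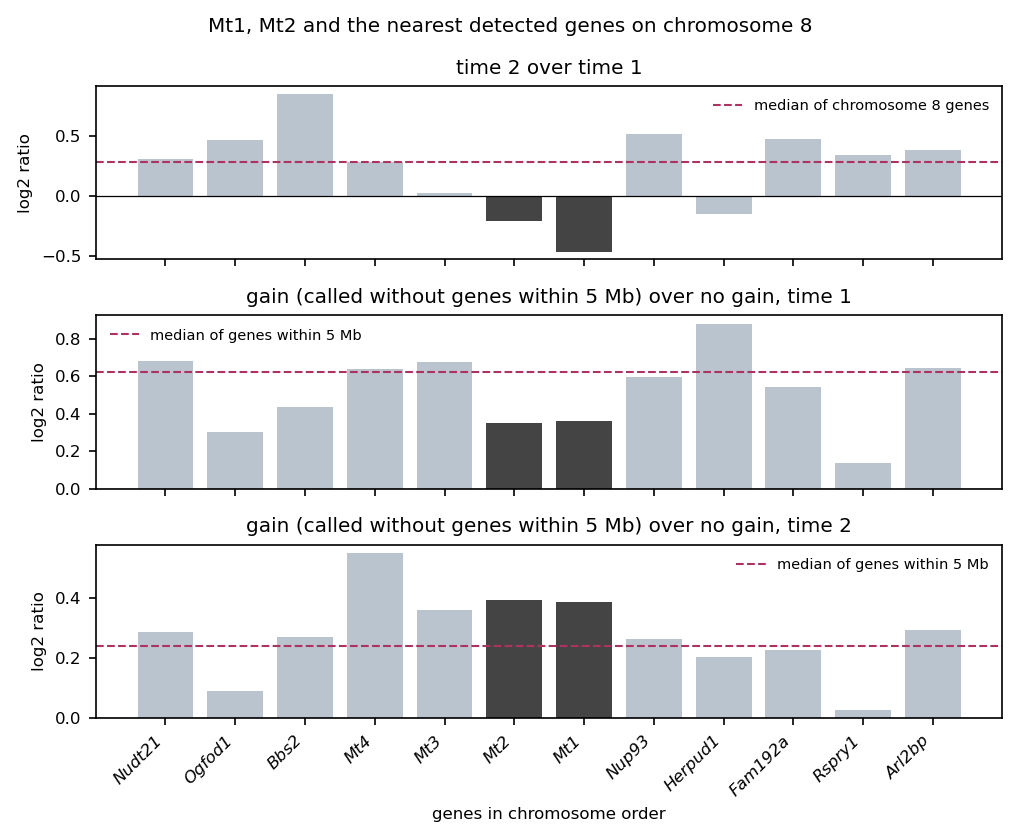
Log2 ratio (vertical axis) of Mt2, Mt1 (dark bars) and the 5 nearest detected genes on each side (grey bars, in chromosome order) for time 2 over time 1 and for cells with a chromosome 8 gain over cells without, in the pluripotent stem cell-like population, with the gain called from genes more than 5 Mb away. The dashed line is the median of chromosome 8 genes over time and of genes within 5 Mb in the gain comparisons; Mt1 and Mt2 lie below it over time (-0.46 and -0.21) and at time 1 (0.36 and 0.35), and above it at time 2 (0.39 and 0.39).

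The change over time was not shared by all clusters. Of the 9 with at least 50 cells in both libraries, Mt1 was lower at time 2 in 7 and Mt2 in 6. At time 1 most of the population was Rhox9-led (7033 cells), and at time 2 most was Krt42-led (9818 cells) or Gm46332-led (6332 cells), so the pooled values compare largely different clusters. In Rhox9-led cells, Mt1 was at 1569 CPM at time 1 and 1594 CPM at time 2 (log2 ratio 0.02), and Mt2 was at 733 and 867 CPM (0.24). In Krt42-led cells, Mt1 was at 1299 and 1339 CPM (0.04) and Mt2 at 690 and 743 CPM (0.11). Both genes were thus near or somewhat above their time 1 levels inside these clusters, though only 123 Krt42-led cells came from time 1.

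Usp26-led cells went the other way. Mt1 fell from 1124 to 549 CPM (-1.03) there, and Mt2 was at 493 and 343 CPM (-0.52). The fall of Mt1 passed the 1.5-fold limit, as 4.68% of genes did downward in this cluster. The Gm46332-led cluster had too few cells at time 1 (18) for a value, and at time 2 it held Mt1 at 788 CPM and Mt2 at 414 CPM. Without this cluster the pooled log2 ratios were -0.28 for Mt1 and 0.00 for Mt2.

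Outside the pluripotent stem cell-like population, both genes were lower at time 2 in the mesendoderm-like and endothelial-like clusters. In the mesendoderm-like (Lhx1-led) cluster, Mt1 fell from 360 to 201 CPM (-0.84), and Mt2 was at 140 and 94.2 CPM (-0.56). In the endothelial-like (Fli1-led) cluster, Mt1 fell from 806 to 456 CPM (-0.82) and Mt2 fell from 279 to 170 CPM (-0.71). The downward limit was passed by 8.05% of genes in the mesendoderm-like and by 6.92% in the endothelial-like cluster. Mt2 in the mesendoderm-like cluster missed the limit narrowly.

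The remaining clusters stayed within the limit. Mt1 was at 958 and 673 CPM in the primed epiblast-like (Sema6a-led) cluster (-0.51), and Mt2 was at 328 and 285 CPM (-0.20). In the 2-cell-like (B020031M17Rik-led) cluster, Mt1 was at 916 and 700 CPM (-0.39) and Mt2 at 406 and 361 CPM (-0.17). The Id1-led cluster, left unnamed, had ratios of -0.19 and -0.02, and the fibroblast-like (Mgp-led) cluster had ratios of -0.09 and 0.08. Over the 9 clusters with at least 50 cells in both libraries, Mt1 passed the limit downward in 3 and Mt2 in 1, and neither passed it upward. Of all genes, 2.18% passed it downward in Sema6a-led, 1.11% in Rhox9-led, 2.59% in Krt42-led, 5.01% in Id1-led, 5.81% in Mgp-led and 11.8% in B020031M17Rik-led cells. Differences between clusters were not tested.

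By level, mesendoderm-like cells were lowest for both genes in both libraries, and Rhox9-led cells were highest for Mt2. At time 1, over 12 clusters, Mt1 ran from 360 CPM in Lhx1-led to 2359 CPM in Card19-led cells, followed by Rpgrip1-led (1665 CPM), Rhox9-led (1569 CPM) and macrophage-like Lyz2-led cells (1519 CPM). The Rhox9-led and Lyz2-led values did not differ beyond counting error (1565 to 1573 against 1469 to 1570 CPM), and neither did primed epiblast-like and fibroblast-like cells (955 to 961 against 939 to 963 CPM). At time 2, over 11 clusters, Mt1 ran from 201 CPM in Lhx1-led to 1594 CPM in Rhox9-led cells, followed by Krt42-led (1339 CPM) and the primitive or parietal endoderm-like Srgn-led cells (1154 CPM). Mt2 was highest in Rhox9-led cells in both libraries (733 and 867 CPM) and lowest in Lhx1-led cells (140 and 94.2 CPM). At time 2 the Mt2 levels of Srgn-led (285 CPM) and Sema6a-led cells (285 CPM) could not be told apart. The highest over the lowest cluster gave 6.55-fold for Mt1 and 5.24-fold for Mt2 at time 1, and 7.93-fold and 9.20-fold at time 2. The Mt1 value at time 1 rests on the 69 Card19-led cells, which stood apart in depth and mitochondrial share. The next cluster was at 1665 CPM. Rhox9-led and Krt42-led cells thus held the top 2 places for Mt2 in both libraries.

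**Figure D2:**
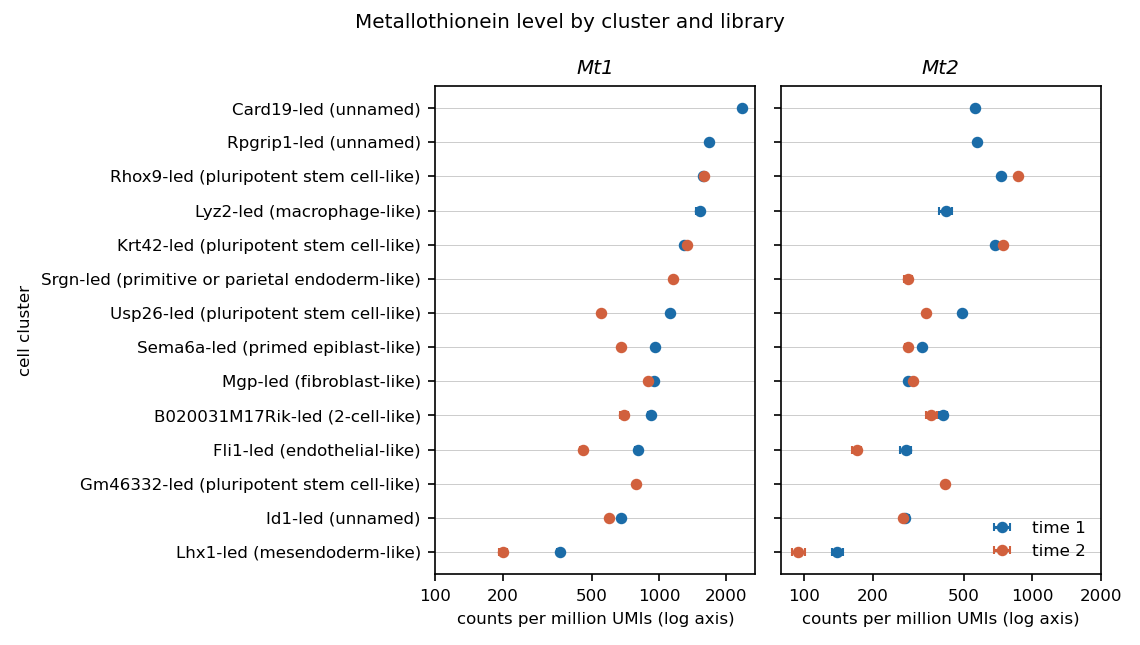
Mt1 and Mt2 in CPM (log axis) in each cluster of at least 50 cells, at time 1 (blue) and time 2 (orange), with 95% Poisson intervals, which are mostly narrower than the points. Mt1 at time 2 ran from 201 CPM in mesendoderm-like Lhx1-led cells to 1594 CPM in Rhox9-led cells, and the time 1 and time 2 points lie furthest apart in Usp26-led, Lhx1-led and Fli1-led cells.

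The smallest barcodes were rich in both transcripts, and whether they held free RNA or parts of cells was not tested. Barcodes between 1000 UMIs and the limit for cells were not examined. Barcodes of under 1000 UMIs, which are too small to count as cells here, held 1323 CPM of Mt1 and 750 CPM of Mt2 at time 1, and 826 and 505 CPM at time 2. At time 1 their level of Mt1 was above that of 8 of 12 clusters, and their level of Mt2 was above all 12. At time 2 their level was above 7 of 11 clusters for Mt1 and 9 of 11 for Mt2, where Rhox9-led and Krt42-led cells lay higher. No cluster lacked either gene, and no correction for free RNA was applied. Its part in the values of the clusters was not tested.

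The share of Mt2 in the UMIs of both genes together also differed between cell types. It was 31.6% in the pluripotent stem cell-like population at time 1 (95% Clopper-Pearson interval 31.6 to 31.7%) and 35.5% at time 2 (35.5 to 35.6%). Within clusters it was also higher at time 2, at 31.8% and 35.2% in Rhox9-led cells, and at 30.5% and 38.5% in Usp26-led cells. Fibroblast-like cells had 23.1% and 25.1%. The lowest shares were 19.3% in Card19-led cells at time 1, 19.8% in Srgn-led cells at time 2 and 21.5% in macrophage-like cells at time 1. In each of the 9 clusters measured at both times, the share was higher at time 2, with intervals that overlapped in Fli1-led cells (24.5 to 27.0% against 26.0 to 28.2%).

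Expression varied widely from cell to cell. After every cell was thinned at random to 10000 UMIs, a pluripotent stem cell-like cell at time 1 had a median of 12 Mt1 UMIs, with 2 at the tenth percentile, 31 at the ninetieth and 121 at most. At time 2 the median was 8, with 2 and 24 at those percentiles and 164 at most. For Mt2 the medians were 6 and 5, with 14 and 13 at the ninetieth percentile. No Mt1 UMI was left in 1.80% of cells at time 1 and 3.74% at time 2, and no Mt2 UMI in 4.33% and 6.16%. With all UMIs, Mt1 was at 0 in 0.0452% of the time 1 cells, so most cells left without Mt1 by thinning held some before it.

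This spread was much larger than that of most genes. The variance over the mean of the thinned counts, which would be 1 for counting noise alone, was 10.3 for Mt1 at time 1, rank 14 from the top among 2571 genes with a mean of at least 0.5 UMIs. At time 2 it was 8.93, rank 7 among 2606 genes. Mt2 had 3.75 (rank 49) and 4.15 (rank 27), and the medians of all genes were 1.13 and 1.11. By the squared coefficient of variation with counting noise removed, which does not grow with level, Mt1 ranked 101 and 54 and Mt2 ranked 203 and 103. The 10% of cells highest in Mt1 held 28.5% of its UMIs at time 1 and 29.9% at time 2.

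**Figure D3:**
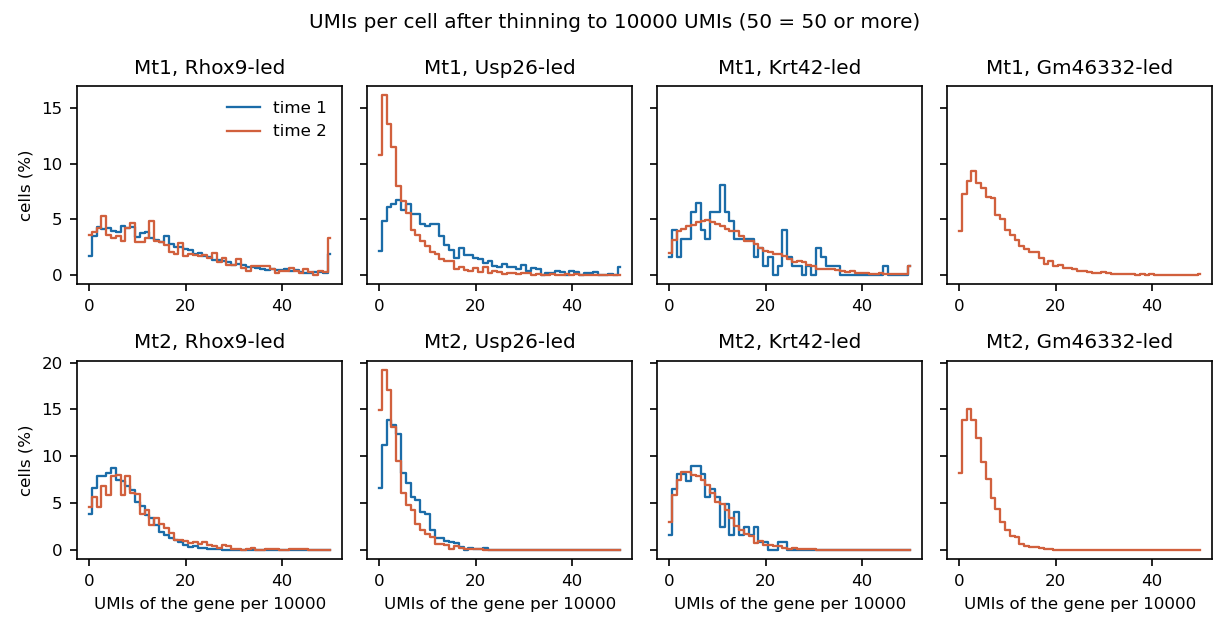
Share of cells (vertical axis, %) by Mt1 (top) or Mt2 (bottom) UMIs per cell after thinning to 10000 UMIs, in the 4 pluripotent stem cell-like clusters at time 1 (blue) and time 2 (orange). The Gm46332-led cluster, with 18 cells at time 1, has a time 2 curve only, and the last step gathers cells with 50 UMIs or more. The Krt42-led curve at time 1 rests on 123 cells and is uneven; in Usp26-led cells the median of Mt1 went from 9 to 3, and in Rhox9-led cells it was 13 at both times.

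The shape differed by cluster. In Usp26-led cells the median of Mt1 was 9 UMIs at time 1 and 3 at time 2, and cells without any made up 2.16% and 10.8%. Rhox9-led cells had a median of 13 at both times, with variance over mean of 10.4 and 13.9. Fibroblast-like cells at time 2 had a median of 5 but a maximum of 193, and the highest variance over mean of any cluster, 22.8. Rpgrip1-led cells were more uniform (median 16, variance over mean 3.97), and Card19-led cells showed only counting noise (median 24, variance over mean 1.00). The last 2 clusters are those that stood apart in background markers or in UMIs per cell.

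Mt1 and Mt2 varied together across single cells. Pearson's r of their log2 thinned counts, with cluster means removed, was 0.68 over 8843 pluripotent stem cell-like cells at time 1 and 0.65 over 19251 at time 2. These points share a library, and the cells are not replicates. Within single clusters r ran from 0.38 in Lhx1-led cells at time 1 to 0.71 in Rhox9-led cells at time 2, leaving out the Card19-led cluster at 0.05. The Rpgrip1-led cluster had 0.44. Mitochondrial share did not follow the genes closely, since the summed thinned count had r of -0.08 and -0.07 with the mitochondrial percentage. With total UMIs that count had r of 0.06 and 0.03. Thinning brings every cell to the same number of UMIs, so this r cannot show whether depth follows the genes.

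Among the other 8314 genes measured in at least 5% of cells, the highest centred correlation with the summed metallothionein count was 0.23 at time 1 and 0.19 at time 2. The 10 genes most like the summed count in both libraries, ranked by the lower of the 2 values, had r between 0.11 and 0.22. Mylpf, a myosin light chain gene, had 0.16 and 0.18, and Rasgrp2, an exchange factor for small GTPases, had 0.22 and 0.16. Ftl1, the ferritin light chain that stores iron, had 0.15 and 0.14, and Txn1, the redox protein thioredoxin, had 0.13 and 0.12. The others were Pcsk1n, Plin3, Plekha4, Mt4, Dnmt3b and Tmsb4x. The 5 most opposed were Tpt1 (-0.12 and -0.16), the ribosomal protein gene Rps24, the mitochondrial gene mt-Co3, Lrrfip1 and Ap3b2. All of these are weak, and counting noise draws r towards 0 for genes with few UMIs per cell.

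Chromosome 8 content was the next axis, because the genes lie on a chromosome that cells in culture can gain. Each cell's share of autosomal UMIs from 646 chromosome 8 genes, leaving out Mt1 and Mt2, was divided by the median of pluripotent stem cell-like cells at time 1, and a ratio of 1.3 or more was called a gain. At time 1, 727 cells (8.22%) were called, and at time 2 9319 cells (48.4%) were. In the cells without the call the median ratio was 0.99 at time 1 but 1.16 at time 2, so the limit runs through a raised population at time 2.

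Over the whole population, cells with a chromosome 8 gain had more of both transcripts at both times, though at time 1 the difference was small among cells of low X content, which made up 89.1% of those with the gain. At time 1, Mt1 was at 1833 CPM in cells with the gain and 1432 CPM without (log2 ratio 0.36), and Mt2 was at 845 and 663 CPM (0.35). At time 2, Mt1 was at 1214 and 930 CPM (0.38), and Mt2 at 668 and 513 CPM (0.38). None of these reached 1.5-fold. That limit was passed upward at time 1 by 1.91% of all genes and 24.6% of chromosome 8 genes, and at time 2 by 0.0726% and 0.935%. Most of those chromosome 8 genes enter the ratio that called the gain, which raises their values, so they are no measure for Mt1 and Mt2, which do not enter it.

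For a comparison with genes that took no part in the call, the gain was called again from 602 chromosome 8 genes, leaving out those within 5 Mb of Mt1. It was called in 695 cells at time 1 and 9031 at time 2, and 26 other genes within 5 Mb were at 10 CPM or more. At time 1, Mt1 had a log2 ratio of 0.36 and Mt2 of 0.35, beside a median of 0.62 for the near genes, 25 of which were above either. At time 2, both had 0.39 beside a median of 0.24, with 1 near gene above either. Both genes were thus near the bottom of their neighbourhood at time 1 and near its top at time 2. The 10 nearest detected genes, called this way, all had ratios above 0, with medians of 0.62 and 0.27.

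Inside clusters at time 2, Mt1 and Mt2 lay within the range of the near genes by the same call. In Krt42-led cells Mt1 had 0.20 and Mt2 0.26 beside a median of 0.21, and in Gm46332-led cells they had 0.15 and 0.12 beside 0.09. In Rhox9-led cells both were below the median at both times. Mt1 had 0.32 and 0.28 there and Mt2 had 0.26 and 0.34, beside medians of 0.62 and 0.55.

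With clusters pooled, both genes were higher in cells with ratios of 1.3 or more than in cells with lower ratios. Mt1 at time 1 was lower in the highest bin than in the one before it. At time 1, Mt1 was at 1321, 1440, 1490, 1853 and 1725 CPM in cells with ratios under 0.9, 0.9 to 1.1, 1.1 to 1.3, 1.3 to 1.5, and 1.5 or more. At time 2 the same bins held 858, 867, 978, 1189 and 1613 CPM. For Mt2 they held 597, 667, 711, 840 and 867 CPM at time 1, and 454, 492, 534, 652 and 927 CPM at time 2. The highest bins are small, with 123 and 644 cells. In the first 4 bins both genes were lower at time 2 than at time 1, and in the highest bin Mt2 was higher at time 2. The bins mix clusters. At time 2, 1701 of the 3738 cells at 0.9 to 1.1 were Usp26-led, with Mt1 at 506 CPM. In Gm46332-led cells Mt1 was at 827 CPM both at 0.9 to 1.1 and at 1.3 to 1.5, and at 1093 CPM from 1.5. In Rhox9-led cells at time 2 it was at 1749 CPM under 0.9, 1733 CPM at 1.3 to 1.5 and 2307 CPM from 1.5. Across single cells with cluster means removed, r between the ratio and the summed metallothionein count was low, at 0.08 and 0.11. This r does not measure the pooled trend, and the ratio of a cell rests on few UMIs (median 322 from chromosome 8 after thinning).

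**Figure D4:**
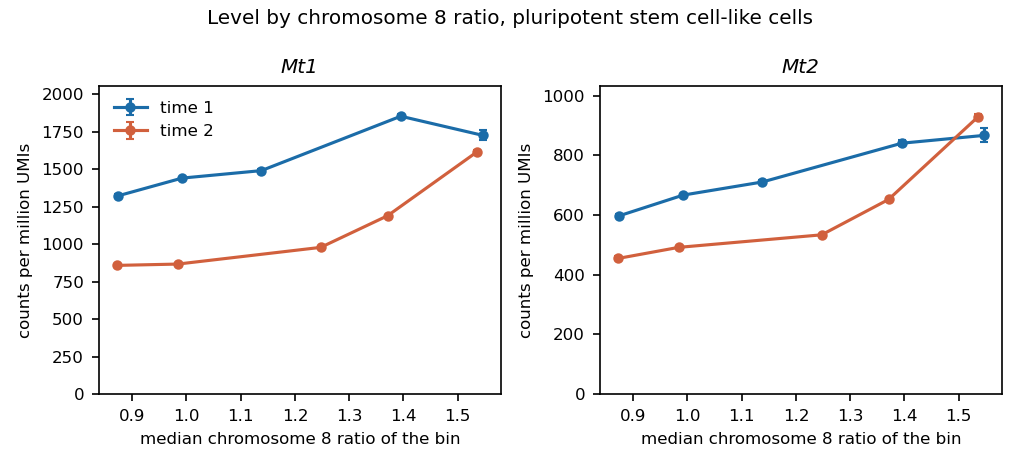
Mt1 and Mt2 in CPM (vertical axes from 0) against the median chromosome 8 ratio of each of 5 bins of pluripotent stem cell-like cells, at time 1 (blue) and time 2 (orange), with 95% Poisson intervals. Both genes were higher in the bins from 1.3 upward. At time 2, Mt1 went from 867 CPM at ratios of 0.9 to 1.1 to 1613 CPM at 1.5 or more. The bins pool clusters whose make-up differs between bins.

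Levels also differed between cells with and without gains of chromosomes 1 and 14, called in the same way. At time 1 such gains were rare, and Mt1 was at 1386 CPM in 136 cells with a gain of 1 alone, 1854 CPM in 718 cells with 8 alone and 1434 CPM in 7941 cells with none. At time 2, cells with a gain of chromosome 8 alone had the most, with Mt1 at 1535 CPM and Mt2 at 870 CPM (3173 cells). Cells with no called gain had Mt1 at 917 CPM and Mt2 at 519 CPM (4105 cells). Leaving out all cells with a gain of 1 or 14 thus gave a log2 ratio of 0.74 for both genes between cells with and without the chromosome 8 gain, past the 1.5-fold limit. In that comparison 1.84% of all genes passed it upward, and 15.2% of chromosome 8 genes, most of which enter the ratio. Of the cells with no gain, 50.2% were Usp26-led, the cluster in which both genes were low at time 2, whereas 79.1% of the cells with chromosome 8 alone were Krt42-led. Within Krt42-led cells the same pair of groups differed less, with Mt1 at 1568 and 1378 CPM and Mt2 at 914 and 762 CPM. The cells with no gain there had a median chromosome 8 ratio of 1.12, against 1.01 over all clusters. In Rhox9-led cells, where it was 1.01, Mt1 was at 1878 and 1488 CPM and Mt2 at 1026 and 812 CPM. In Gm46332-led cells, where it was 1.17, Mt1 was at 1230 and 1005 CPM and Mt2 at 572 and 474 CPM.

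Cells with gains of both 1 and 14 had the least. Mt1 was at 667 CPM in cells with gains of 1 and 14 (1779 cells) and at 706 CPM in those with 8 as well (1549 cells), and Mt2 was at 366 and 386 CPM. Cells with a gain of 1 but not 14 had Mt1 at 1054 CPM (3944 cells), and at 1189 CPM with 8 as well (4466 cells). The 104 cells with 14 alone had Mt1 at 928 CPM. The median chromosome 8 ratio at time 2 was 1.22 with 1 alone, 1.24 with 1 and 14 and 1.23 with 14 alone. It was 1.01 in cells with no gain, and 0.96 in cells with 1 alone at time 1. Time 2 cells with 1 or 14 but no called gain of 8 were thus raised in chromosome 8, below the limit. Cells with 1 and 14 were also below those with 1 alone inside both main clusters, with Mt1 at 984 against 1210 CPM in Krt42-led cells and at 545 against 834 CPM in Gm46332-led cells. Mt2 was at 528 against 657 CPM and at 303 against 447 CPM. A gain of 1 alone had no single direction. Over all cells at time 2 Mt1 was higher with it than with no gain (1054 against 917 CPM). It was also higher in Rhox9-led cells at time 2 (1869 CPM in 67 cells against 1488 CPM in 622). Mt1 was lower with it in Krt42-led cells (1210 against 1378 CPM) and Gm46332-led cells (834 against 1005 CPM) at time 2. Over all cells at time 1 it was lower too. Lines could not be separated, so gains and line of origin cannot be told apart.

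**Figure D5:**
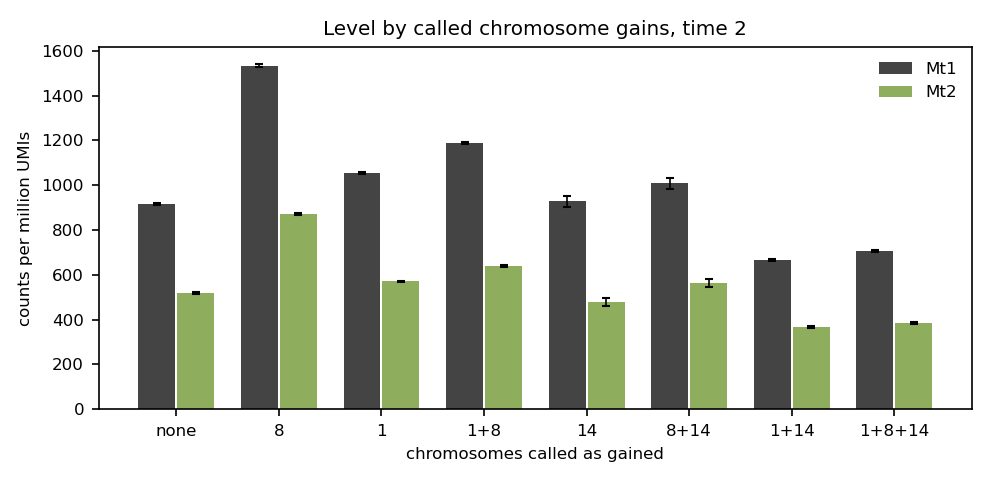
Mt1 (dark) and Mt2 (green) in CPM, with 95% Poisson intervals, in pluripotent stem cell-like cells at time 2 grouped by which of chromosomes 1, 8 and 14 were called as gained. Cells with chromosome 8 alone were highest (Mt1 1535 CPM), and cells with 1 and 14, without or with a called gain of 8, were lowest (667 and 706 CPM). Cells with 1, 14 or both but no called gain of 8 had median chromosome 8 ratios of 1.22 to 1.24, against 1.01 with no gain.

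Over the pooled population both genes also differed with the sex chromosome content of the cells, though not in every cluster. Cells without UMIs from 4 Y-linked genes were split by their share of X-linked UMIs relative to Y-positive cells, as X-high (1.2 or more) or X-low. At time 1, Mt1 was at 1246 CPM in 4836 X-high cells, 1806 CPM in 2713 X-low cells and 1780 CPM in 646 Y-positive cells. At time 2 it was at 764, 1116 and 1149 CPM. X-low and Y-positive cells were thus close to each other and above X-high cells. Mt2 was at 600, 807 and 765 CPM at time 1 and at 462, 605 and 638 CPM at time 2.

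The log2 ratio of X-high to X-low cells was -0.54 for Mt1 at both times, and -0.43 and -0.39 for Mt2, all short of the 1.5-fold limit, which 1.97% and 3.08% of genes passed downward. Gains of chromosome 8 were called in 0.682% of X-high but 23.9% of X-low cells at time 1, and in 8.41% and 56.2% at time 2. Among cells without that gain the ratios for Mt1 were still -0.52 and -0.51, and for Mt2 -0.40 and -0.34. The clusters did not all share them. In Rhox9-led cells Mt1 had -0.49 and -0.40, and in Usp26-led cells at time 2 it had -0.91 with 87 X-low cells. At time 2 it had 0.10 in Krt42-led cells and -0.02 in Gm46332-led cells, with 8074 and 5413 of the 13896 X-low cells. Of the 2913 X-high cells at time 2, 1982 were Usp26-led, so the pooled ratio there compares largely different clusters.

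The contrast of cells with and without the chromosome 8 gain was also taken inside these classes. Among X-low cells at time 1, Mt1 was at 1863 CPM in 648 cells with the gain and 1788 CPM in 2065 without (log2 ratio 0.06), and Mt2 was at 853 and 792 CPM (0.11). These are smaller than the 0.36 and 0.35 over all cells, and only 33 X-high cells had the gain at time 1, too few for a value. At time 2, X-low cells had ratios of 0.25 for Mt1 and 0.27 for Mt2, and Y-positive cells had 0.23 and 0.29. X-high cells at time 2 had 1.13 and 1.14, past the limit, which 6.78% of genes passed upward there. Of the X-high cells without the gain, 73.7% were Usp26-led, whereas 65.3% of the 245 with it were Krt42-led. Within Krt42-led X-high cells the ratios were 0.36 and 0.39, and within Rhox9-led X-high cells they were -0.01 and 0.34.

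Lists of 104 other genes in these pathways and in stress and cell cycle programmes were examined, and of 81 at 10 CPM or more in either library, 7 were at least 1.5-fold higher at time 2 and 15 lower. Over all genes 5.24% passed upward and 10.2% downward, with a median of -0.03, and a count of 1 in a list of 4 to 8 genes cannot be told from that background. With trimmed-mean scaling 9 were higher and 13 lower of 80, Slc30a5 and Slc39a1 no longer passed, and the medians of the zinc import (0.06), copper (0.14) and antioxidant (0.04) lists turned above 0. Mtf1, the factor that drives metallothionein transcription in response to zinc, was at 16.6 and 16.0 CPM (-0.04). Of 5 measured genes of metal-responsive control and zinc export, 0 were higher and 2 lower, with a median of -0.34: the zinc transporter genes Slc30a5 (18.5 CPM at time 1, log2 ratio -0.59) and Slc30a9 (25.4 and 13.3 CPM, -0.88) fell. Slc30a1, a zinc exporter under the control of MTF1, was at 12.2 and 9.42 CPM and did not pass. Of 5 zinc importers, Slc39a10 rose from 31.2 to 48.7 CPM and Slc39a1 fell from 11.7 to 7.25 CPM (median -0.08).

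Few copper, antioxidant and iron genes passed the limit. None of 6 copper-handling genes (median -0.01) and none of 10 antioxidant genes (median -0.11) did so. Hmox1, the haem-degrading enzyme induced by metals and oxidative stress, lies on chromosome 8 and was at 71.1 and 96.7 CPM. All 6 iron genes had log2 ratios below 0, with a median of -0.46 (-0.30 over 5 genes with trimmed-mean scaling), and the exporter gene Slc40a1 passed, falling from 26.4 to 6.74 CPM. Of 4 measured genes of the glucocorticoid response, the kinase gene Sgk1 rose from 106 to 193 CPM and the phosphatase gene Dusp1 fell from 55.6 to 27.3 CPM.

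The list with most changes was that of hypoxia and glycolysis, in which 7 of 9 genes were lower and none higher (median -0.95, and 7 of 9 with a median of -0.81 under trimmed-mean scaling). Bnip3, a mitophagy gene, fell from 282 to 62.3 CPM, and Pgk1, a glycolytic enzyme gene, from 1540 to 590.1 CPM. Among 8 integrated stress genes 2 were lower, led by Ddit4, which fell from 81.1 to 22.1 CPM. Of heat shock genes 1 of 4 was higher, of p53 targets 1 of 6 lower, and of G2 and M phase genes 1 of 8 higher. Of S phase genes 3 of 8 were higher, led by the replication helicase gene Mcm5 (120 and 217 CPM). Of the higher genes across lists, Mcm5 lies on chromosome 8 and Mcm3, Mcm6, Cenpf and Slc39a10 on chromosome 1. Hsph1 lies on chromosome 5 and Sgk1 on chromosome 10. Gains of chromosomes 1 and 8 were called in many cells at time 2, and Pgk1 is X-linked. The ratios of all lists pool clusters whose make-up differs between the times, and none was taken within a cluster. The part of chromosome content and of cluster make-up in these ratios was not tested. Across single cells the median centred correlation of each of these 12 lists with the summed metallothionein count lay between -0.03 and 0.06 in both libraries. The median over 8314 genes was 0.00 in both. Counting noise draws r towards 0 for genes with few UMIs, and several list members were low, such as Mtf1 at 16.6 CPM at time 1. Low values of r thus do not show that these genes vary apart from Mt1 and Mt2.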

How the data were processed

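Each time point was 1 droplet library with no replicate. The deposited values are raw UMI counts, with Cell Ranger 6.1.2 named per the file headers, and bcl2fastq 2.20.0.422, mm10 and GRCm38 named in the submitters' processing notes. Identifiers of 32235 of 32285 genes matched GENCODE M21 (GRCm38), and promoters came from RefSeq. The files held 145288 and 52242 barcodes. Cells had at least 18315 UMIs at time 1 or 18645 at time 2 (0.1 times the 99th percentile of the 20000 largest barcodes), 1000 or more genes, and no more than 10% of UMIs from mitochondrial genes. The automatic threshold of Scrublet marked 0 and 1 cells, so, after seeing this, the 10% of cells with the highest scores per library were removed. Clusters used 2000 variable autosomal genes without Mt1 and Mt2, 30 components, 15 neighbours and Leiden resolution 0.5 (scanpy 1.11.5), and were named from markers of a class among their 10 leading genes. Clusters led by no other class's marker were called pluripotent stem cell-like where fibroblast and macrophage markers summed to under 40 CPM. UMIs of all 12 pluripotency markers were present in each of these, which took no part in the naming. Chromosome ratios used thinned counts of genes seen in at least 5% of cells, leaving out ribosomal proteins and any gene above 3% of its chromosome. X ratios used all UMIs, and Y-positive cells had at least 2 UMIs. Values are summed UMIs as CPM. Counts are of 3′ ends and were not divided by length. Genes named are Mt1 and Mt2, up to 3 highest and 3 lowest list members past 1.5-fold with some unchanged ones of known role chosen after their values were seen, the chromosome 8 neighbours, and the genes most and least correlated. Trimmed-mean factors came from edgeR 4.0.16. Steps were tested on simulated data. The members and lists were chosen with earlier results of these data known. Alternatives covered scaling, pseudocount, population, doublets, thinning and gain limits.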

Additional observations from a re-analysis of the deposited data

Results flagged for a closer look

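In some clusters the log2 ratio of time 2 to time 1 was above 0, while the pooled ratios of both genes were below 0 and short of the 1.5-fold limit. It was 0.0226 for Mt1 and 0.242 for Mt2 within the Rhox9-led cluster, and 0.0439 for Mt1 and 0.107 for Mt2 within the Krt42-led cluster. In the fibroblast-like Mgp-led cluster, Mt2 had 0.0757 while Mt1 had -0.09. The difference between these clusters and the pooled population was not tested, and each rests on 1 library per time.

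Barcodes of under 1000 UMIs, which were not counted as cells, carried both transcripts. Mt1 was at 1323 CPM there at time 1 (4449 barcodes) and at 826 CPM at time 2 (7491 barcodes). Mt2 was at 750 and 505 CPM. Fibroblast markers summed to 56.4 and 107 CPM in the same barcodes, against 5.75 and 5.34 CPM in pluripotent stem cell-like cells. The part of free RNA in the levels of cells was not tested.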

How the results depend on the processing

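With 1 library per time and no replicate, no test was made, and alternatives are compared with counting error alone, so small shifts count as moves. The cause of each move was not tested. No paired analysis was possible because the 2 groups share only 1 replicate number. The planned look at barcodes under 500 UMIs was not run, as the smallest barcode held 500. Every value thus describes these 2 pools only.

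For time 2 over time 1 in the pooled population (log2 -0.46 for Mt1 and -0.21 for Mt2), scaling gave -0.32 and -0.064 with trimmed means, and -0.43 and -0.18 with genes outside chromosomes 1, 8, 14 and X. The mean of thinned counts gave -0.43 and -0.18 and their median -0.58 and -0.26. Kept doublets gave -0.48 and -0.23, clustering with Mt1 and Mt2 -0.46 and -0.23, and cells with no called gain -0.64 and -0.36. All filtered cells gave -0.0394 for Mt2. Adding primed epiblast-like cells gave -0.23 for Mt1 and turned Mt2 to 0.15. Populations chosen after seeing the data gave, with the Sema6a-led and Id1-led clusters, -0.35 and 0.0023, with the Rpgrip1-led cluster -0.52 and -0.14, and without the Gm46332-led cluster -0.28 and -0.0039. Single clusters gave, for Mt1 and Mt2, -0.51 and -0.20 (Sema6a-led), 0.0226 and 0.24 (Rhox9-led), -1.03 and -0.52 (Usp26-led), 0.0439 and 0.11 (Krt42-led), -0.84 and -0.56 (Lhx1-led), -0.19 and -0.021 (Id1-led), -0.82 and -0.71 (Fli1-led), -0.0867 and 0.0757 (Mgp-led), and -0.39 and -0.17 (B020031M17Rik-led). Mt1 kept its sign in 20 of 22 alternatives and Mt2 in 17 of 22.

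For chromosome 8 gain over no gain, both genes kept their sign in all 8 alternatives at time 1 and all 12 at time 2. At time 1 (0.36 and 0.35), a limit of 1.2 gave 0.32 for Mt1 and 0.33 for Mt2, Rhox9-led cells gave 0.31 and 0.26, and cells without gains of 1 or 14 gave 0.37 for Mt1. At time 2 (0.38 and 0.38), a limit of 1.2 gave 0.34 and 0.32, a limit of 1.4 gave 0.46 and 0.49, autosomes other than 1, 8 and 14 as the base gave 0.28 and 0.28, all UMIs gave 0.45 and 0.44, and cells without gains of 1 or 14 gave 0.74 and 0.74. A ratio without genes within 5 Mb gave 0.39 for Mt2. Rhox9-led cells gave 0.28 and 0.30, Gm46332-led cells 0.16 and 0.13, and Krt42-led cells 0.20 and 0.24. Classes added after seeing the data gave 0.0598 and 0.11 in X-low cells at time 1, and at time 2 0.25 and 0.27 in X-low, 1.13 and 1.14 in X-high, and 0.23 and 0.29 in Y-positive cells.

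The correlation of Mt1 with Mt2 (0.68 and 0.65) was 0.70 and 0.72 as Spearman's rho, 0.64 at time 1 over all filtered cells, and 0.70 at time 2 without removing cluster means. Of genes past 1.5-fold at time 2, 386 were higher and 753 lower, against 767 and 473 with trimmed means. With no minimum level 566 were higher and 1652 lower. In the gain comparison, no minimum level gave 225 higher and 835 lower at time 1, in place of 140 and 336. At time 2 it gave 7 higher and 202 lower, in place of 5 and 63.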
